A study of Mus musculus with 58 samples.

Results

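The genes described here encode the subunits of the mitochondrial respiratory chain and ATP synthase. They are all genes with a symbol starting with Ndufa, Ndufb, Ndufc, Ndufs, Ndufv, Sdha, Sdhb, Sdhc, Sdhd, Uqcr, Cox4, Cox5, Cox6, Cox7, Cox8 or Atp5 that were measured by an array feature carrying a single gene symbol. This gave 93 of the 22180 genes measured in that way. By role, 32 belong to complex I, 4 to complex II, 7 to complex III, 19 to complex IV and 17 to ATP synthase, also called complex V. The prefixes also caught 12 assembly factors, which help to build complexes I and II without remaining in them, and 2 pseudogenes. For the 10 genes with several features the brightest was used.

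Complexes I and II pass electrons from NADH and succinate to ubiquinone, complex III passes them to cytochrome c, and complex IV passes them to oxygen. Complexes I, III and IV pump protons across the inner mitochondrial membrane, and ATP synthase uses their return to make ATP. Most subunits are encoded in the nucleus and imported, a core set is encoded by mitochondrial DNA, and several subunits of complex IV exist as isoforms of different tissues.

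RNA was measured on 58 arrays, 29 of liver tumors and 29 of normal liver, from adult mice of mixed 129/Sv, C57BL/6 and FVB/NJ descent. All animals, including those that gave normal liver, had received adeno-associated virus (AAV), a gene transfer vector, soon after birth. The stated aim was to learn if AAV insertions had a part in liver cancer. The titles were read as naming 39 animals, of which 18 gave both a tumor and a normal liver and 1 gave 2 tumors. One of the names stands on both a +/- and a -/- normal liver and was read as 2 animals, and as written there are 38 names. Some titles carry a -/- or +/- mark for a gene that the labels do not name, 1 title carries the word GFP, and vector and dose are otherwise not given. The gender label is female for 11 tumors and 9 normal livers, male for 17 tumors and 20 normal livers, and missing for 1 tumor. The deposited values are log2 signals, on which a difference of 1 is a doubling. Each feature has probes of its own, so levels of different genes cannot be compared.

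Some arrays stood apart from their tissue label. Each array was placed on an axis on which the mean of the other normal livers is 0 and the mean of the other tumors is 1, over the 421 to 478 genes outside the 93 whose group means differed by at least 1 (log2). Tumors 1 and 24 lay at -0.08 and -0.07, tumor 20 at 0.26 and tumor 25 at 0.42, all nearer the normal livers. Normal liver 27 lay at 1.20 and normal liver 16 at 0.68, nearer the tumors. The other 25 tumors ranged from 0.55 to 1.36 and the other 27 normal livers from -0.23 to 0.35. Leaving out these 6 arrays was chosen after seeing the data and sets the groups further apart by construction. By mean correlation with the rest, tumor 9 was lowest (0.839), followed by tumor 20 (0.914) and normal liver 16 (0.930), and on 7 arrays both Xist and Y-linked genes went against the gender label.

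Hepatocyte marker signals were low in tumor 9. The summed linear signal of 12 markers was 3300 in tumor 9 and at least 47800 in the other tumors, against 56300 to 87000 in normal livers. Tumor 9 also had the highest sum of 11 T and NK cell markers, 22600 against 4460 in the next tumor, with 1460 to 5450 in normal livers. Its sum of 7 B and plasma cell markers was 30600 against 9610 in the next tumor, with 1430 to 7690 in normal livers. Tumor 20 had the highest neutrophil marker sum among tumors, 15600 against 2450 in the next, with 783 to 16300 in normal livers. The 16300 belongs to normal liver 19 of the same animal, and the next normal liver stood at 6450. In such whole-tissue RNA, fewer cells of a type and less RNA per cell cannot be told apart.

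Respiratory chain genes were mostly higher in tumors, by small amounts. Of the 93 genes 52 were higher, 3 were lower and 38 were not called (limma with the animal as random block, Benjamini-Hochberg adjusted p under 0.05 over all genes). Of all 22180 genes 17.9% were called higher and 14.3% lower. Among the brighter 11090 genes, which include 80 of the 93, the shares were 28% and 16%. The median log2 change was 0.21 over the 93 genes, -0.02 over all genes and 0.05 over the brighter genes, and 80 of the 93 changes were positive. Cox7a1 was the single gene with a log2 change of at least 1. Without the 6 arrays nearer the other tissue 56 genes were higher and 4 lower. Of all genes 4959 were then higher and 4911 lower, against 3964 and 3166 on all arrays.

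Markers of cell types and of proliferation moved with the tissue label too. Of 11 proliferation markers 11 were higher in tumors, among them Rrm1 (1.48), with summed signals of 2420 to 9850 in tumors and 1960 to 4410 in normal livers. Of 12 hepatocyte markers 6 were lower and 0 higher (limma, also 0 higher at an unadjusted p under 0.05), with a median change of -0.31, led by the cytochrome P450 genes Cyp2e1 (-2.66) and Cyp3a11 (-1.27). Of 12 macrophage markers 4 were higher and 5 lower, from Gpnmb (1.76) to Vsig4 (-2.37), with sums of 3920 to 17000 in tumors and 3910 to 28700 in normal livers. Of 9 endothelial markers 3 were higher and 2 lower, from Esm1 (1.86) to Clec4g (-2.03), with sums of 3600 to 13700 in tumors and 4780 to 11600 in normal livers. Of 9 stellate cell and fibroblast markers 4 were higher and 3 lower, and of 6 bile duct markers 0 were higher (limma, also 0 at an unadjusted p under 0.05) and 4 lower. The part of these cell types and of proliferation in the respiratory chain values was not tested.

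**Figure D1:**
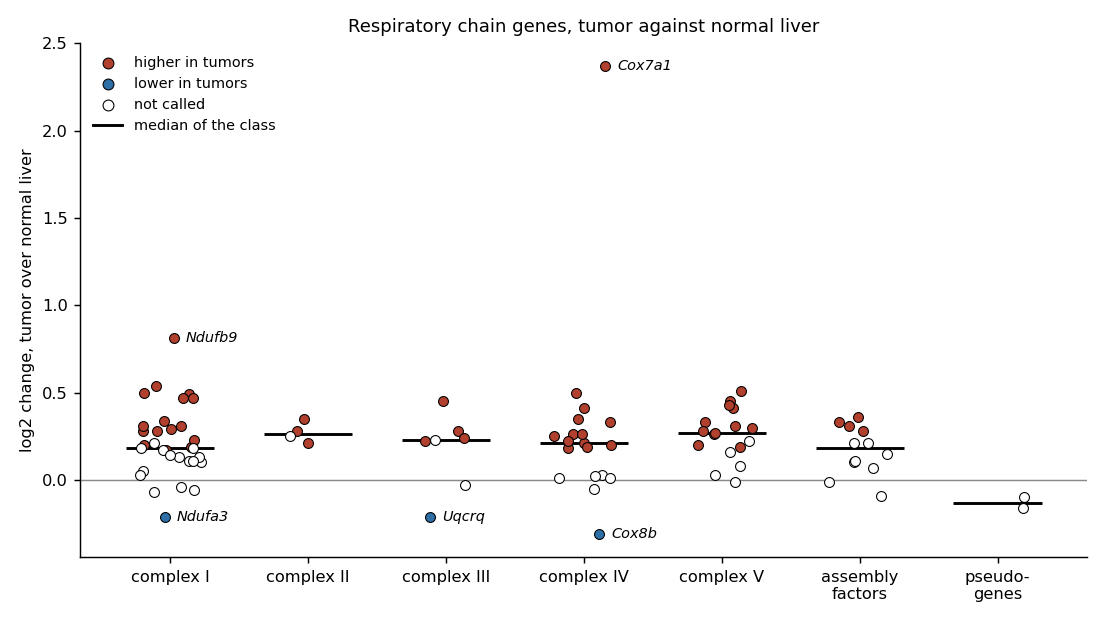
Log2 change in tumors over normal liver (vertical axis) of each of the 93 genes, grouped by complex, assembly factors and pseudogenes (horizontal axis). Red points were called higher, blue points lower and white points neither, and black lines are class medians; Cox7a1 lies at 2.37, Ndufb9 follows at 0.81, and the medians of complexes I to V lie between 0.19 and 0.27.

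Within animals fewer genes were called, while the changes were about as large. When limma was fitted to the 18 pairs only, blocked by animal, 25 of the 93 genes were higher and 0 lower, all 25 among the 52, against 12.6% and 8.13% of all genes. At an unadjusted p under 0.05 the counts were 41 and 2. The median change over the 93 genes was 0.24 in the pairs, and 18 of the 30 genes that lost their call had a change at least as large in the pairs as over all arrays. The 25 were Ndufa10, Ndufa12, Ndufb3, Ndufb9, Ndufc1, Ndufs1, Ndufs3, Ndufs4 and Ndufv2 of complex I, Cox5a, Cox6b1, Cox7a1, Cox7a2 and Ndufa4l2 of complex IV, Atp5a1, Atp5b, Atp5c1, Atp5d, Atp5g3, Atp5l, Atp5o and Atp5pb of ATP synthase, and the assembly factors Ndufaf5, Ndufaf6 and Ndufaf8. In the animals without a pair 12 genes were higher and 0 lower, against 6.18% and 3.17% of all genes, and 31 and 2 had an unadjusted p under 0.05 (limma). Over all genes the unadjusted counts in the pairs and in the animals without a pair are not given here. Of the 93 genes 22 were higher in the tumor in at least 15 of 18 pairs, against 10.2% of all genes, and none was higher in all 18.

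The count of higher genes also moved with the scale of the arrays. Centring each array on its median gave 48 higher and 3 lower, and quantile normalization gave 43 and 2. Of all genes 3750 were higher and 3665 lower with median centring, and 3657 and 3724 with quantile normalization. Centring on the brighter genes outside the 93, whose median was itself 0.07 higher in tumors, gave 34 higher and 3 lower, a scaling chosen after seeing the data. Under it the median change was 0.14 over the 93 genes and -0.10 over all genes, of which 3016 were higher and 4926 lower, against 3964 and 3166 as deposited. Under all 4 scalings 32 of the 93 genes were called higher, with 11 in complex I, 2 in complex II, 2 in complex III, 6 in complex IV, 8 in ATP synthase and 3 among the assembly factors. Ndufa3 and Uqcrq were called lower under all 4. In every one of the 18 settings tried, scalings and left-out arrays included, 11 genes were called higher. They are Ndufa10, Ndufc1, Ndufs1, Ndufs3, Ndufs4, Ndufv2, Cox7a1, Atp5a1, Atp5b, Atp5d and Atp5pb.

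Cox7a1, the heart and muscle isoform of subunit 7A of complex IV, had the largest change. Its lowest, median and highest log2 signals were 6.29, 9.76 and 11.21 in tumors, against 6.34, 7.12 and 10.12 in normal livers. The normal liver at 10.12 was normal liver 27, an array nearer the tumors, and 26 of 29 tumors lay above all of the other 28 normal livers. The mean was 9.51 ± 1.30 in tumors and 7.14 ± 0.63 in normal livers (SD, n = 29 each), which is 5.17-fold (log2 2.37, SE 0.25, adjusted p = 5.3e-11), and the tumor was higher in 16 of 18 pairs. Over the settings tried the change ranged from 2.26 to 2.73.

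In 5 tumors Cox7a1 stayed at or near the level of normal liver. They were tumors 9 (6.29), 20 (6.75), 24 (7.34), 1 (7.41) and 16 (7.52), and the next lowest, tumor 27, stood at 8.70. Tumors 1, 20 and 24 are arrays nearer the normal livers, tumor 9 is the one with low hepatocyte marker signals, and tumor 16 lay at 1.16 on the tissue axis. In the pairs of tumors 9 and 20 the tumor was lower than its normal liver, with differences of -1.04 and -0.50. Without the 6 arrays nearer the other tissue the mean was 9.75 ± 1.08 in 25 tumors and 7.05 ± 0.25 in 27 normal livers (SD), and 24 of 25 tumors lay above the highest normal liver. The log2 change was then 2.73 (limma adjusted p = 1e-16), but leaving out these arrays sets the groups further apart by construction.

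**Figure D2:**
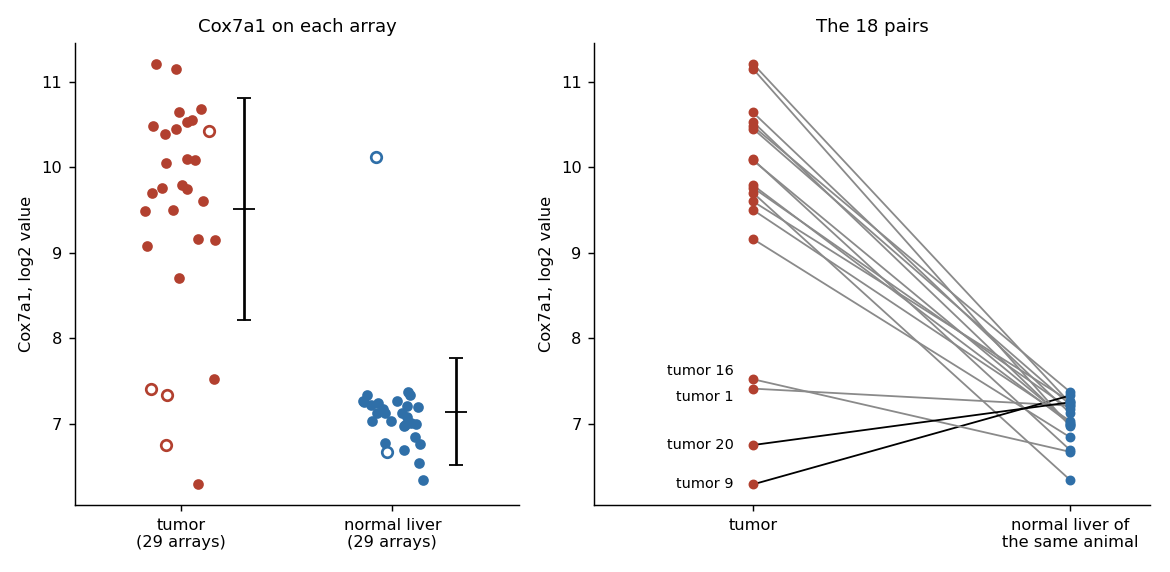
Log2 signal of Cox7a1 on each array (left, with mean ± SD of 29 tumors and 29 normal livers, open circles for the 6 arrays nearer the other tissue) and in the 18 pairs (right, black lines where the tumor is lower). Tumors spread from 6.29 to 11.21, whereas 28 normal livers lie between 6.34 and 7.37 and normal liver 27 at 10.12.

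Markers of striated muscle were not called higher beside Cox7a1. Of 13 striated muscle markers 0 were higher in tumors (limma, also 0 at an unadjusted p under 0.05) and 4 were lower, with summed signals of 1460 to 2090 in tumors and 1470 to 2200 in normal livers. Mb, which encodes myoglobin, and Tnnc2, a troponin of fast muscle, each had a log2 change of -0.16. Of 6 adipocyte markers 1 was higher, the lipid droplet gene Cidec (1.10), and 1 lower, the brown fat uncoupling protein gene Ucp1 (-0.12). Of the genes next to Cox7a1, Capns1, a calpain subunit, was higher by 0.49 (adjusted p = 0.00029), and Gm5113 (0.09), Zfp146 (0.01) and Tbcb (0.14) were not called.

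The promoters of Cox7a1, of its liver counterpart Cox7a2, and of Cox6a1 are shown because they belong to 1 complex and differ in sequence make-up as well as in their change. Each is the 250 bases before the RefSeq start on GRCm38.p6, 5′ to 3′ on the strand of the gene, and capitals mark matches to the NRF1 motif (GCGC and TGCGC around 1 free base) or the NF-Y motif CCAAT on either strand. The windows are chr7:30183921-30184170 (+) for Cox7a1, chr9:79759854-79760103 (-) for Cox7a2 and chr5:115348959-115349208 (-) for Cox6a1.
Cox7a1: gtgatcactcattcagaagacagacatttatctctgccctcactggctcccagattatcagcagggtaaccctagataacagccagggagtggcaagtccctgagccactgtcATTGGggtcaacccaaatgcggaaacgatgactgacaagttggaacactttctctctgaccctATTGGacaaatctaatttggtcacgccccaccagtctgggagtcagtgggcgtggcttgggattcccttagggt
Cox7a2: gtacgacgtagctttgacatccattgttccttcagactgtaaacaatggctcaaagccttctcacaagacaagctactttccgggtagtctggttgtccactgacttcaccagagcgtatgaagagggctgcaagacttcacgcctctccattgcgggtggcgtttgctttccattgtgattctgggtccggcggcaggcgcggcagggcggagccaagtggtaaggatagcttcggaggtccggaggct
Cox6a1: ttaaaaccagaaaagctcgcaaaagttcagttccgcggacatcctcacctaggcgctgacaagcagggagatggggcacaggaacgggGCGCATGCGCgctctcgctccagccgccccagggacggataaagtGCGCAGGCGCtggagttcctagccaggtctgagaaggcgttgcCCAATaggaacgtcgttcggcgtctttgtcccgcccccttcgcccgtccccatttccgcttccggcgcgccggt

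Cox7a1 held 4 CG pairs and 2 NF-Y matches, both on the opposite strand, Cox7a2 held 14 CG pairs and no match, and Cox6a1 held 26 CG pairs, 2 NRF1 matches and 1 NF-Y match. Windows on chromosome 18, where Ndufa2 and Atp5a1 lie, were not used. Windows were then at hand for 76 of the 93 genes, with a median of 15 CG pairs against 5 over all 27025 windows used. The letters of NRF1, a known factor of nuclear genes for mitochondria, were in 15.8% of the 76 against 3.77% of all windows, and in 6 of the 43 windows of genes called higher. CCAAT was in 40.8% against 34.2%, and the ETS factor motif CCGGAAGT in 3.95% against 2.93%. The motif AAGGTCA of estrogen-related receptors was in 3.95% against 4.05%, and AAGATGGCG of YY1 in 1.32% against 0.618%. The MEF2 motif, CTA and TAG around 4 free bases, was in 1.32% against 3.23%, and the myogenic E-box CAGCTG in 7.89% against 12.9%. All were searched on both strands, and a match is a match of letters, not a binding site.

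The other isoforms of complex IV changed less. Cox7a2 lay at 9.81, 11.31 and 11.75 (lowest, median, highest) in tumors and at 10.03, 10.64 and 11.44 in normal livers. It was higher by 0.50 (SE 0.11, adjusted p = 0.00027), with 8 tumors above the highest normal liver and the ranges otherwise overlapping. Its relative Cox7a2l, which takes part in joining complexes III and IV, was higher by 0.20 (adjusted p = 0.0207), a call lost in the 18 pairs (0.25, adjusted p = 0.0881) and under quantile normalization (0.12, adjusted p = 0.083).

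Cox8b, the heart and muscle isoform of subunit 8, was lower. It lay at 5.52, 6.06 and 6.63 in tumors and at 5.86, 6.19 and 8.94 in normal livers (log2 change -0.31, SE 0.12, adjusted p = 0.0382). The value of 8.94 belongs to normal liver 13, and without that array, left out after seeing the data, the change was -0.21 (adjusted p = 0.0420). The call was lost in the 18 pairs (-0.39, adjusted p = 0.101) and under quantile normalization (adjusted p = 0.0523). The ubiquitous isoform Cox8a was higher by 0.22 (adjusted p = 0.0037; 0.25 and adjusted p = 0.0753 in the pairs), and the testis isoform Cox8c had a change of -0.05 and was not called.

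In the Cox4i, Cox6a and Cox6b families the ubiquitous subunit was higher, and the testis or lung isoform, where there is one, was not called. Cox6b1 was higher by 0.33 (adjusted p = 0.00079), against 0.01 for the testis isoform Cox6b2. Cox4i1 was higher by 0.26 (adjusted p = 0.0498), against 0.03 for the lung isoform Cox4i2. With median centring the Cox4i1 call was lost (0.25, limma adjusted p = 0.064). Cox6a1, the isoform of liver, and Cox6a2, that of heart and muscle, were higher by 0.18 (adjusted p = 0.0345) and 0.25 (adjusted p = 0.0389). In the 18 pairs Cox4i1, Cox6a1 and Cox6a2 had changes of 0.24, 0.19 and 0.21 and were not called. Under quantile normalization Cox6a2 lost its call (0.17, limma adjusted p = 0.214), while Cox6a1 kept it (0.24). With centring on the brighter genes Cox6a1 (0.10), Cox6a2 (0.17) and Cox4i1 (0.18) were not called. Ndufa4, a complex IV subunit named after complex I, had a change of 0.02, and Ndufa4l2, known to be induced by low oxygen, was higher by 0.26 (adjusted p = 0.00012) in 16 of 18 pairs. In animals without a pair Ndufa4l2 had a change of -0.01. The small changes of Cox4i2, Cox6b2 and Ndufa4 changed sign with the scaling.

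**Figure D3:**
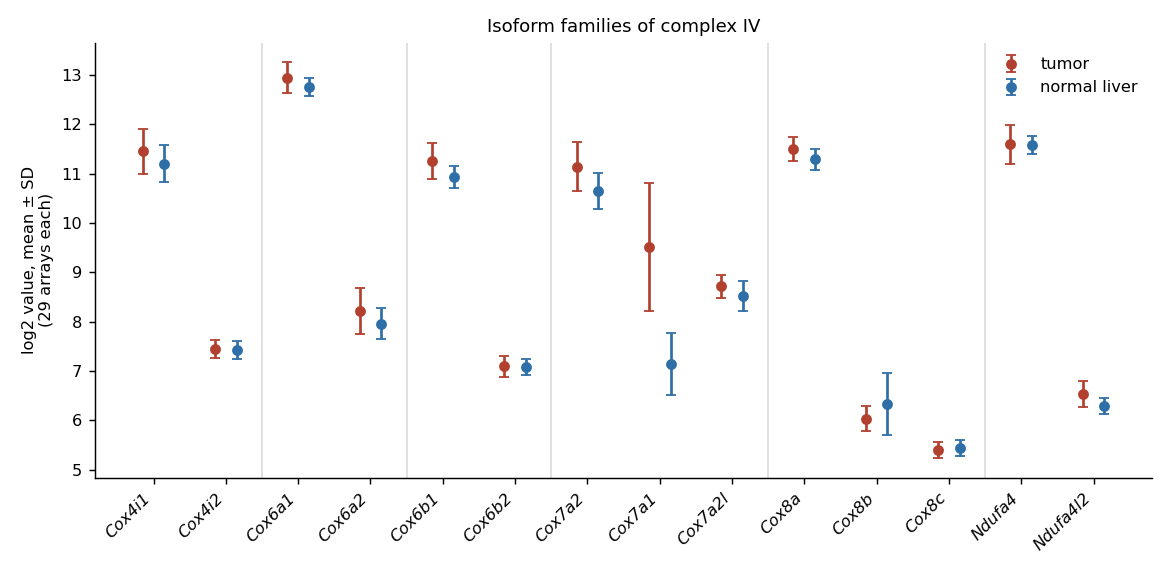
Mean ± SD of the log2 signal (vertical axis) in 29 tumors (red) and 29 normal livers (blue) for the isoform families of complex IV. Cox7a1 has means of 9.51 in tumors and 7.14 in normal livers, and the other pairs of means lie within 0.50 of each other; heights of different genes cannot be compared.

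Of the 19 complex IV genes 13 were higher, 1 was lower and 5 were not called. Cox5a was higher by 0.41 in 16 of 18 pairs, Cox7b by 0.35, Cox5b by 0.21 and Cox7c by 0.19. Cox7b2, the testis isoform of subunit 7B, had means of 3.87 in tumors and 3.86 in normal livers.

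Of the 32 complex I genes 16 were higher, 1 was lower and 15 were not called. Complex I has a matrix arm, which takes electrons from NADH, and a membrane arm, which pumps protons. Of 6 core subunits of the matrix arm 4 were higher, the iron-sulfur proteins Ndufs1 (0.50), Ndufv2 (0.47) and Ndufs7 (0.23), and Ndufs3 (0.31). Ndufv1, which binds NADH, and Ndufs8 had changes of 0.18 and were not called. Ndufs1 lay at 8.30, 10.05 and 10.55 in tumors and at 8.96, 9.45 and 10.12 in normal livers, with 10 tumors above the highest normal liver and 2 below the lowest. Of 8 accessory subunits of the matrix arm 3 were higher, Ndufs4 (0.47), Ndufa6 (0.31) and Ndufa12 (0.28).

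Of 17 accessory subunits of the membrane arm 8 were higher and 1 was lower. Ndufb9 lay at 8.62, 10.87 and 11.79 in tumors and at 8.85, 9.92 and 11.36 in normal livers, and was higher by 0.81 (SE 0.16, adjusted p = 4.1e-05) in 15 of 18 pairs. Its ranges overlapped, with 5 tumors above the highest normal liver. Ndufc1 lay at 7.74, 9.14 and 9.68 in tumors and at 8.02, 8.47 and 9.08 in normal livers, and was higher by 0.54 (SE 0.10, adjusted p = 1.2e-05) in 14 of 18 pairs. Here 16 of 29 tumors lay above the highest normal liver.

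Ndufa3, another accessory subunit of the membrane arm, was the complex I gene that was lower. It lay at 10.80, 11.46 and 11.85 in tumors and at 11.25, 11.70 and 11.96 in normal livers (log2 change -0.21, SE 0.06, adjusted p = 0.0065), and 4 of 18 pairs had the higher value in the tumor. No tumor lay above the highest normal liver and 5 lay below the lowest. Within the 18 pairs the change was -0.16 and the call was lost (adjusted p = 0.158). Ndufab1, the mitochondrial acyl carrier protein, was higher by 0.17.

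Of the 4 complex II genes 3 were higher. Sdhb, the iron-sulfur subunit, was higher by 0.35 (adjusted p = 0.0071), Sdhd, a membrane anchor, by 0.28 (adjusted p = 0.0139) and Sdha, the flavoprotein that oxidizes succinate, by 0.21 (adjusted p = 0.0368). Sdhc, the other anchor, had a change of 0.25 (95% interval 0.02 to 0.48, adjusted p = 0.0945). Sdhb lay at 8.54, 10.15 and 11.01 in tumors and at 9.09, 9.66 and 10.36 in normal livers, so tumors reached further in both directions. In the 18 pairs Sdhb, Sdhd and Sdha had changes of 0.37, 0.32 and 0.21 and were not called (adjusted p = 0.0855, 0.109 and 0.231).

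Of the 7 complex III genes 4 were higher and 1 was lower. Uqcrfs1, the Rieske iron-sulfur protein, was higher by 0.45 (SE 0.12, adjusted p = 0.0026), the core proteins Uqcrc2 and Uqcrc1 by 0.28 and 0.22, and the hinge protein Uqcrh by 0.24. Uqcrb, a small subunit, had a change of 0.23 that missed the threshold (adjusted p = 0.0522) and passed it under quantile normalization (0.26, adjusted p = 0.0034). Uqcrq, a small subunit bound near the cytochrome b protein, lay at 7.40, 8.90 and 9.23 in tumors and at 8.76, 9.02 and 9.30 in normal livers (log2 change -0.21, SE 0.07, adjusted p = 0.0104). In 10 tumors it lay below the lowest normal liver. Without tumor 9 its change was -0.15 (adjusted p = 0.0065), and in the 18 pairs Uqcrq (-0.21), Uqcrfs1 (0.47) and Uqcrc2 (0.29) lost their calls, as did Uqcrc1 and Uqcrh.

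Of the 17 ATP synthase genes 12 were higher and 0 lower (limma, also 0 lower at an unadjusted p under 0.05). In the catalytic head, Atp5b, the beta subunit, lay at 11.68, 13.04 and 13.49 in tumors and at 11.91, 12.48 and 13.16 in normal livers and was higher by 0.45 (SE 0.09, adjusted p = 9.6e-05). Atp5a1, the alpha subunit, was higher by 0.33. All 4 genes of the peripheral stalk, which holds the head in place, were higher. They were Atp5pb (0.51, SE 0.10), Atp5o (0.31), Atp5h (0.27) and Atp5j (0.19), and Atp5o was higher in 17 of 18 pairs.

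In the central stalk Atp5d (0.41) and Atp5c1 (0.20) were higher and Atp5e (0.16) was not called. Of the 3 genes for the c subunit of the rotor ring, Atp5g3 (0.28) and Atp5g1 (0.26) were higher and Atp5g2 (0.08) was not called. Of the small membrane subunits Atp5l (0.43) and Atp5mpl (0.30) were higher, and Atp5md (0.22), Atp5j2 (0.03) and Atp5k (-0.01) were not called.

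Of the 12 assembly factors 4 were higher, against 17.9% of all genes and 28% of the brighter genes. All 4 were of complex I, namely Ndufaf6 (0.36), Ndufaf1 (0.33), Ndufaf8 (0.31) and Ndufaf5 (0.28). Ndufaf5 was higher in 17 of 18 pairs. Ndufaf1 lost its call in the 18 pairs (0.27, adjusted p = 0.339) and under quantile normalization (0.23, adjusted p = 0.0861). The complex II factors Sdhaf1, Sdhaf2, Sdhaf3 and Sdhaf4 had changes between -0.01 and 0.21 and were not called. The pseudogenes Atp5c1-ps (-0.10) and Uqcrh-ps1 (-0.16) were not called.

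The subunits encoded by mitochondrial DNA were mostly not called. Of 10 measured 1 was higher and 0 lower (limma, also 0 lower at an unadjusted p under 0.05), with a median change of -0.04. ND6, a complex I subunit encoded on the other strand from the rest, was higher by 0.54 (SE 0.17, adjusted p = 0.0106) in 15 of 18 pairs, and had a change of 0.33 that was not called in animals without a pair (adjusted p = 0.597). The other 9 had changes between -0.08 and 0.03. Their means, 12.54 to 13.60 in tumors, lay near the highest value deposited, 14.08, and whether signals so near the top can show small changes was not tested.

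The complexes tended to move together across tumors. Each array was scored by the mean deviation of the subunits of a complex from their normal-liver means, with no test since genes share arrays. The scores used the values as deposited, without centring of arrays. Tumors averaged 0.22 ± 0.31 for complex I, 0.27 ± 0.44 for complex II, 0.17 ± 0.35 for complex III, 0.28 ± 0.24 for complex IV and 0.26 ± 0.27 for ATP synthase (SD, n = 29). The SDs of the 29 normal livers around 0 were 0.20, 0.26, 0.21, 0.14 and 0.18. Without Cox7a1 the complex IV mean was 0.17 ± 0.19 in tumors. All 5 complexes lay above the normal-liver mean in 21 tumors and 10 normal livers, all below it in 3 tumors and 10 normal livers, and on both sides in 5 tumors and 9 normal livers. Without the 6 arrays nearer the other tissue, a choice that sets the groups further apart by construction, the tumor means were 0.25, 0.33, 0.19, 0.33 and 0.30.

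**Figure D4:**
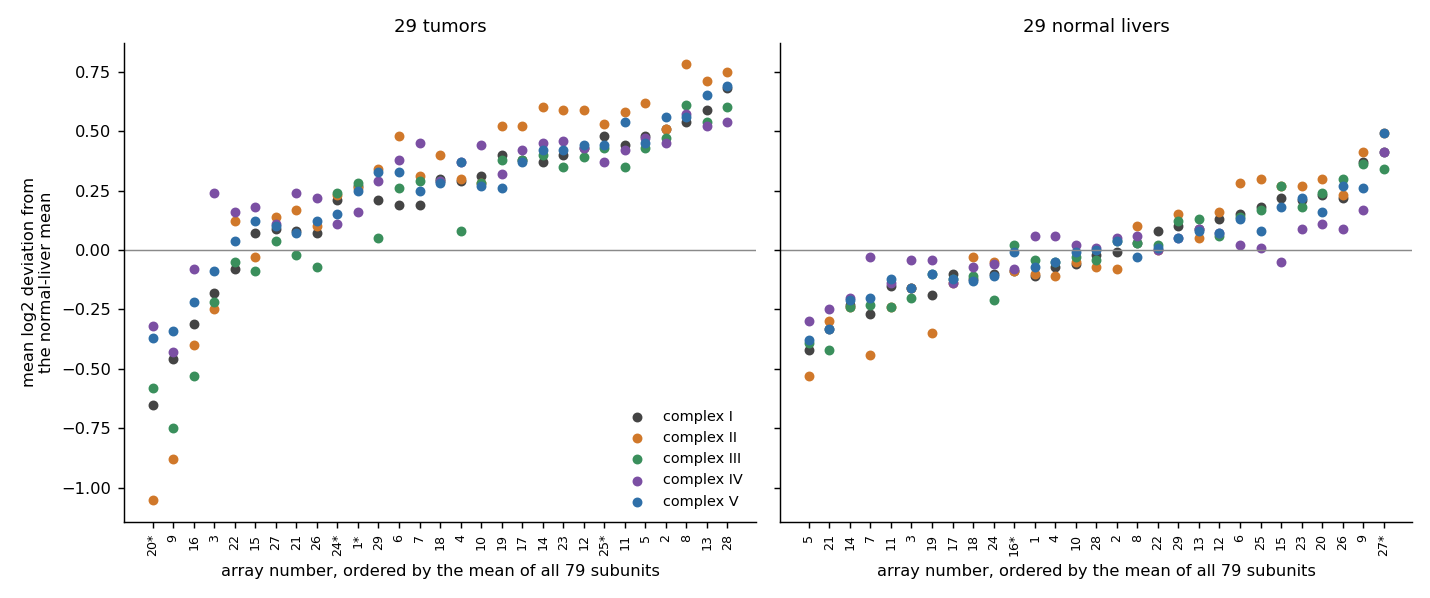
Mean log2 deviation of the subunits of each complex from the normal-liver mean (vertical axis) on 29 tumors (left) and 29 normal livers (right), ordered by the mean of all 79 subunits (horizontal axis). Asterisks mark the 6 arrays nearer the other tissue; tumors 20, 9 and 16 lie below 0 in all 5 complexes, and 21 tumors lie above 0 in all 5.

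Tumors differed widely from each other. In tumor 28, 62 of the 93 genes lay above the highest normal liver, in tumor 13 it was 49 and in tumor 8 it was 43. In tumor 20, 44 genes lay below the lowest normal liver, in tumor 9 it was 39 and in tumor 16 it was 16. The same counts over all genes are not given here, so no background stands beside them. The mean over the 79 subunits, Cox7a1 among them, was 0.64 in tumor 28. It was -0.53 in tumor 20, -0.48 in tumor 9 and -0.26 in tumor 16. Cox7a1 was low in these last 3 tumors and also in tumors 1 and 24, whose means were 0.24 and 0.18. In tumors 20, 9 and 16 the mean hepatocyte marker deviations were -0.20, -4.74 and -0.95. The part of other cell types in these values was not tested. The median of the brighter genes outside the 93 deviated from normal liver by -0.34 in tumor 20, 0.02 in tumor 9 and 0.06 in tumor 16. In tumor 28 that deviation was 0.16. The part of such array-wide shifts in the subunit means was not tested. Without tumor 9, 56 of the 93 genes were higher and 3 lower, against 4129 and 3356 of all genes.

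Among the 18 pairs the tumor had the higher value for 64 to 85 of the 93 genes in 13 animals. The count was 53 for tumor 3, 37 for tumor 16, 31 for tumor 15, 16 for tumor 20 and 12 for tumor 9. The counts over all genes in each pair are not given here. In the pair of tumor 15 complex IV was higher by 0.24 while complex III had a difference of -0.35. The SD was larger among tumors than among normal livers in 85 of the 93 genes, against 14947 of all 22180 genes, with medians of 0.38 in tumors and 0.28 in normal livers over the 93.

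Other mitochondrial genes were counted on lists chosen for their roles, and those that were called were higher. In some of these lists most genes were not called. Of all genes 17.9% were called higher, and of the brighter genes 28%. Cyc1, cytochrome c1 of complex III, was higher by 0.81 and Atpif1, an inhibitor of ATP synthase, by 0.75, whereas Cycs, cytochrome c, had a change of 0.16 and was not called. Of 36 assembly factors outside the prefixes 15 were higher, with Coa5 (0.76) and the copper chaperone Cox17 (0.69, in 18 of 18 pairs) leading. Of 12 coenzyme Q genes 5 were higher, with Coq8b (0.90) and Coq5 (0.56) leading, and of 23 import and outer membrane genes 20 were, with Timm17a (0.76) and Chchd4 (0.72). Of 71 mitochondrial ribosomal proteins 45 were higher, among them Mrpl34 (0.71) and Mrpl13 (0.67). In these lists no gene was lower, also at an unadjusted p under 0.05 (limma).

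Fuel pathways and regulators held larger single changes. Of 16 genes of the citric acid cycle and pyruvate dehydrogenase 10 were higher, led by Idh3a (1.29) and fumarase gene Fh1 (1.19), and 1, Suclg2, was lower (-0.27, not called in the pairs). Of 13 glycolysis genes 11 were higher, led by Pfkp (2.17, in 18 of 18 pairs) and Slc2a1 (1.58). Pdk1, which inhibits pyruvate dehydrogenase, was the 1 that was lower (-0.71). With all features of a gene averaged, Slc2a1 had a change of 0.74 and Pdk1 of -0.4. Of 16 regulators 4 were higher, a share between those of all genes (17.9%) and of the brighter genes (28%). They were Ppargc1a, a coactivator of mitochondrial genes, by 2.04 (SE 0.24, limma adjusted p = 2e-09) in 16 of 18 pairs, Myc (0.56), Esrra (0.31) and Gabpb1 (0.17). Nrf1 (-0.01), Tfam (0.09) and Gabpa (0.10) were not called. Of 11 genes of mitochondrial DNA maintenance and nucleotide supply 5 were higher, led by the ADP/ATP carrier gene Slc25a4 (1.35) and the nuclease gene Mgme1 (0.46). Mmut, methylmalonyl-CoA mutase of the matrix, was lower (-0.73, adjusted p = 0.0074), with a change of -0.48 in the 18 pairs, where the call was lost (adjusted p = 0.182), and of -1.23 in animals without a pair (adjusted p = 0.0497).

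**Figure D5:**
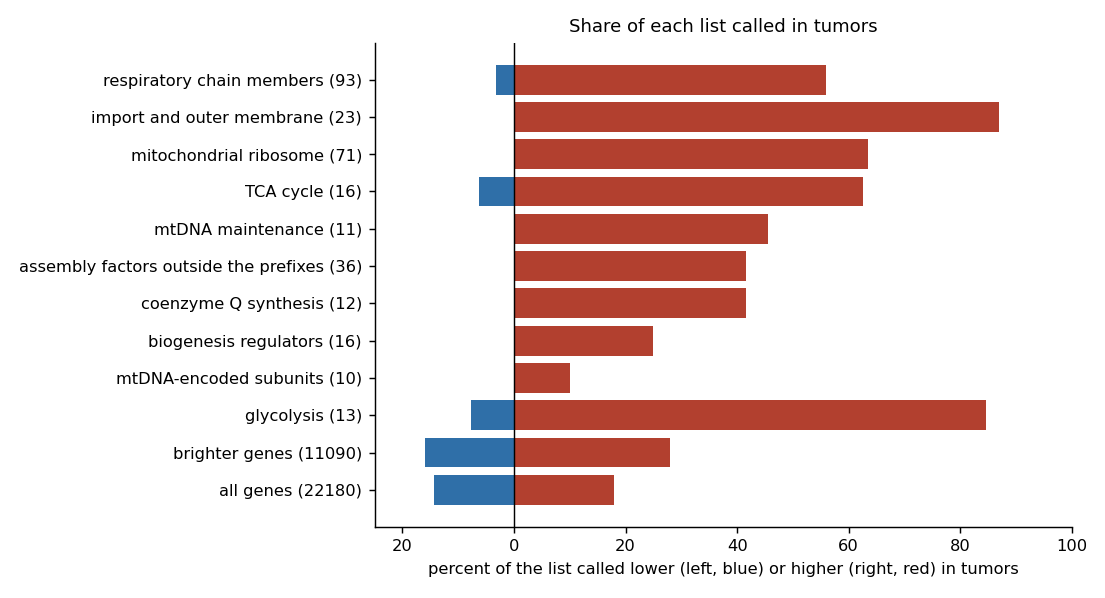
Percent of each list called lower (left, blue) or higher (right, red) in tumors, with the number of genes in brackets. The 93 respiratory chain genes stand at 55.9% higher and 3.23% lower, the subunits encoded by mitochondrial DNA at 1 of 10 higher, and all genes at 17.9% higher and 14.3% lower.

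The change in tumors was compared between the gender labels. None of the 93 genes differed (female change minus male change, limma interaction), and 0.0% of all genes did in either direction. At an unadjusted p under 0.05, 0 of the 93 had a larger change in females and 2 a smaller one, against 2.24% and 2.29% of all genes. The smallest p belonged to Cox7b2 (-0.10 in females, 0.05 in males, adjusted p = 0.949), Atp5g2 (-0.10 and 0.18) and Atp5d (0.19 and 0.53). The median difference was -0.14 over the 93 genes and 0.0 over all genes. Under quantile normalization it was -0.06 over the 93, and 0 genes had an unadjusted p under 0.05 (limma). Of 11 female tumors 4 are arrays nearer the normal livers, against 0 of 17 male tumors, and without the arrays nearer the other tissue the median difference was -0.10. Without tumor 9 it was -0.20, and 13 genes had a smaller change in females at an unadjusted p under 0.05. Without the 7 arrays whose Xist and Y-linked genes went against the gender label it was -0.17. There 4 genes had a smaller change in females at an unadjusted p under 0.05 and 0 a larger one (limma). For these other settings the counts over all genes are not given here, so no background stands beside them.

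Among normal livers labelled male 4 marked -/- were compared with 5 marked +/-. Xist and Y-linked genes of normal liver 15 (+/-) went against that label, and normal livers 27 (-/-) and 26 (+/-) carry the same animal name. None of the 93 genes was called (limma), and 0.0% of all genes were in either direction. At an unadjusted p under 0.05, 7 of the 93 were higher in -/- livers and 1 lower, against 872 and 589 of all genes. Leaving out 1 liver at a time moved the 7 between 4 (without normal liver 13) and 11 (without normal liver 17), with 5 without normal liver 15, 9 without 26 and 7 without 27. The counts over all genes with a liver left out are not given here. Atp5k, a small membrane subunit of ATP synthase, averaged 10.82 ± 0.12 in -/- livers, the lowest at 10.72, and 10.22 ± 0.20 in +/- livers, the highest at 10.45 (SD, n = 4 and 5, limma difference 0.61, SE 0.16, adjusted p = 0.558). Ndufa5, of the matrix arm of complex I, had 9.86, 9.79, 10.05 and 10.04 in -/- livers and 9.25, 9.58, 9.43, 9.01 and 9.58 in +/- livers (difference 0.57, adjusted p = 0.583). Ndufb10, of the membrane arm, had 8.91, 9.22, 9.01 and 9.40 in -/- livers and 8.60, 8.61, 8.88, 8.56 and 8.62 in +/- livers (difference 0.48, adjusted p = 0.634). The groups did not overlap in 7 of the 93 genes, which were higher in -/- livers for 6, these 3 and Cox5a, Ndufa4 and Atp5c1, and lower for Cox8b, against 1.4% and 0.83% of all genes. The last 4 were named after their values were seen. The complex I mean was 0.15 ± 0.22 in -/- livers and 0.04 ± 0.21 in +/- livers (SD, n = 4 and 5), and without normal liver 27, a -/- array nearer the tumors, the -/- mean was 0.07. Mmut had a difference of -0.29 (adjusted p = 0.916).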

How the data were processed

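Per the submitters' processing notes, the authors used Affymetrix Expression Console on Mouse Gene 2.0 ST arrays. The version, algorithm and build were not given in the sources used here. Deposited values were log2 signals from 2.91 to 14.08 with array medians from 6.72 to 7.15. Scanner files were not used here, so detection could not be examined, and the number of arrays limits the precision. Features were named through the platform table, and 22180 genes had a feature with a single symbol. Another 9 names with the prefixes occur only on features with several symbols and were not used.

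Tissue and sex were taken from the labels and animals from the titles. The 18 pairs rest on titles that name the same animal (block correlation 0.145). Whether these samples are independent otherwise is not stated, so p-values measure the spread between these arrays. Tests ran in R 4.3.3 with limma 3.58.1, helped by statmod 1.5.0 (lmFit, duplicateCorrelation by animal, eBayes with trend, Benjamini-Hochberg over 22180 genes); figures used matplotlib 3.10.9 in Python 3.11.15. Marks were compared without a block. In simulated data 100 of 22180 genes were given each size of change. Between tumors and normal liver 57% of changes of 0.25 and 92% of changes of 0.5 were recovered. By sex 53% of 0.5 were recovered, and by mark 15% of 0.5. On the arrays 3964 genes were called higher and 3166 lower. The median SD of the respiratory chain genes was 0.38 in tumors and 0.28 in normal livers. Whether the simulated rates hold for these arrays was not tested. Alternatives were other scalings, blocks, filters, array weights and left-out arrays.

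The members and lists were chosen with earlier results of these data known. Genes with full values follow a rule: per complex the gene of highest mean and up to 2 of largest change each way, the complex IV isoform families, up to 2 each way per list, the 3 of smallest p for sex and marks, and Mmut. Other genes were named after their values were seen.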

Additional observations from a re-analysis of the deposited data

Results flagged for a closer look

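In the +/- normal livers, Ndufb10 had 8.88 in normal liver 13, far from the other 4 values, 8.60, 8.61, 8.56 and 8.62. It lay nearest the -/- livers, whose lowest value was 8.91. Among 16 groups of values examined this was the single one with a sample so far from the rest, and chance gives about 1 in 20.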

How the results depend on the processing

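Of the 52 higher and 3 lower genes, 25 and 0 were called within the 18 pairs (fixed replicate block), and 12 and 0 in the animals without a pair, where 31 and 2 had an unadjusted p under 0.05 (limma); both use fewer arrays. Without a replicate block 44 and 2 were called, against 3680 and 2710 of all genes. Array weights gave 68 higher and 5 lower, against 5345 and 6169 of all genes, and centring on brighter genes gave 34 higher. Cox6b2 had 0.0 with median centring, 0.0 to 0.03 with tumor 9 or normal liver 13 or 27 left out, -0.01 in the pairs and -0.07 with centring on brighter genes. Cox4i2 had -0.02 in animals without a pair and -0.04 with centring on brighter genes. Ndufa4 had 0.0 in animals without a pair, -0.02 without the arrays against or without a gender label and -0.06 with centring on brighter genes. Ndufa4l2 had -0.01 in animals without a pair. The cause was not tested. No gene was called for sex or marks under the settings tried; leaving out 1 liver at a time moved the mark differences of Atp5k between 0.54 and 0.67, Ndufa5 between 0.48 and 0.62 and Ndufb10 between 0.39 and 0.55. Centring on brighter genes, and leaving out normal livers 13 or 27, the 3 arrays of lowest correlation or the 6 nearer the other tissue, were chosen after seeing the data. Signals near the top of the range and unknown detection limit what dim and very bright genes can show.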
